A study of Mus musculus with 30 samples.

Results

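The RNA-seq libraries of MBD2t neuronal progenitor cells (NPCs) were compared with those of MBD2a NPCs, across all genes of the deposited count table. The comparison used 6 of the 24 RNA-seq libraries in a series of 30 samples: 3 MBD2t libraries (s22, s23 and s24 in the deposited column headers) and 3 MBD2a libraries (s13, s14 and s15). They were chosen by the genotype in their labels and by the column headers, and no measured value entered the choice. Both lines were mouse embryonic stem cells (ESCs) in which exons 2 and 3 of Mbd3 had been targeted (Mbd3KO), with a biotin-tagged MBD2 isoform placed at 1 recombination site under control of a CAG promoter. Their endogenous Mbd2 gene was intact, and all libraries were made from poly(A) RNA after differentiation to the NPC stage. The 3 MBD2a libraries came from individually derived clones, whereas the 3 MBD2t libraries were repeats of 1 clone. For MBD2t, what belongs to the protein and what belongs to that clone therefore cannot be told apart, and the p-values measure the spread between libraries. Wild-type ESCs (WT) and the Mbd3KO line without a construct, with 3 NPC libraries each, served as the references.

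MBD2 is a methyl-CpG-binding protein, and with MBD3 it forms alternative, mutually exclusive subunits of the NuRD complex, which joins a chromatin remodeller to histone deacetylases. MBD2a is the full-length isoform, with an arginine- and glycine-rich stretch at its N-terminus, a methyl-CpG-binding domain and a C-terminal coiled coil. The coiled coil is required for interaction with the remodelling module of NuRD. MBD2t, known from stem cells and testis, keeps the N-terminus and the methyl-CpG-binding domain and lacks the coiled coil. In ESCs, loss of MBD3 is known to hold back the exit from pluripotency and neural differentiation. The comparison addresses whether 2 isoforms with the same DNA-binding part, with and without the coiled coil, left the Mbd3KO cells in different transcriptional states.

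Mbd2 itself was the check of the labels. Its level, in CPM (read counts scaled to a common library size and normalised for library composition), was 335, 356 and 340 in the MBD2t libraries and 87.2, 86.3 and 67.0 in the MBD2a libraries s13, s14 and s15. In Mbd3KO it was 65.3, 64.2 and 70.9, and in WT 40.8, 50.4 and 43.8. Every MBD2t library lay far above all others, whereas the MBD2a libraries lay at or slightly above the Mbd3KO level, and s15 lay within the Mbd3KO range. The difference was a log2 fold change of 2.10 (SE 0.22, adjusted p = 2.7738e-05 by the quasi-likelihood test of edgeR), and MBD2a against Mbd3KO differed by 0.26 on the log2 scale. The count covers the whole gene, so endogenous and inserted transcripts are summed. By Western blot of ESC lines, the study reported MBD2a protein at levels similar to those of MBD3 and of a shorter MBD2 isoform. Protein was not measured in these libraries. Since Mbd2 reads of the libraries labelled MBD2a lay close to the Mbd3KO level, MBD2a stands in every value and direction given for the libraries with that label. Mbd3 was read at 69.0, 77.5 and 74.1 CPM in MBD2t and at 71.0, 70.8 and 36.4 CPM in the libraries labelled MBD2a, against 155, 149 and 157 CPM in WT. The groups overlapped (log2 fold change 0.31, adjusted p = 0.627). Reads from exons outside the targeted ones are included in this count, so it does not test the knockout.

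Totals were 35182427 to 46121563 counts per MBD2t library and 31875299 to 36684317 per library labelled MBD2a, within the 27993858 to 49392806 of all 24 libraries. The median difference between replicates of a gene's log2 level was 0.077 to 0.091 among the MBD2t libraries and 0.20 to 0.32 among those labelled MBD2a. Library s15 stood apart from s13 and s14: from 80 Mb to the end of chromosome 1, the median difference of s15 from the other 2 was -0.65 to -0.55 log2 units in the 10 Mb bins with at least 20 genes. On chromosome 1 as a whole, the median deviation from the mean of the Mbd3KO, MBD2a and MBD2t libraries was 0.21 in both s13 and s14, -0.22 in s15, -0.33 in the Mbd3KO library s04 and 0.01 to 0.03 in MBD2t, so leaving out s15 does not remove a chromosome 1 difference. Counts are given also without s15, and each call named below that was lost without it is marked. Genes of the Y chromosome were nearly absent from the libraries labelled MBD2a: Ddx3y, an RNA helicase gene, was at 15.6, 13.9 and 14.6 CPM in MBD2t and at 0.403, 0.412 and 1.30 CPM in MBD2a (log2 fold change 4.36, adjusted p = 0.0014034). Uty (log2 fold change 4.56, adjusted p = 0.0029261) and Eif2s3y (4.27, adjusted p = 0.012236) differed in the same way, and reads of their X copies may be split between the copies. The 3 genes summed to 28.9 to 30.3 CPM in MBD2t and 0.795 to 2.65 CPM in MBD2a. Their sum was 34.8 to 54.2 CPM in WT and 5.34 to 16.7 CPM in Mbd3KO. Of the genes called between the lines, 435 (327 higher and 108 lower) lay outside chromosomes 1 and Y and the mitochondrial genome, a count added after seeing the data.

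The neural progenitor label was checked against its markers. The progenitor transcription factor Pax6 was at 17.6, 16.7 and 20.3 CPM in MBD2t and at 58.9, 58.7 and 9.99 CPM in MBD2a, against 142, 168 and 197 CPM in WT. The intermediate filament gene Nes was at 70.6 to 83.0 CPM in MBD2t and 59.3 to 74.9 CPM in MBD2a, and at 215 to 340 CPM in WT. The Notch effector Hes5 was at 0.663 to 3.68 CPM over the 6 libraries and the fatty acid-binding protein gene Fabp7 at 0.159 to 0.518 CPM, against at least 87.8 and 35.7 CPM in WT. Both lines were thus low in the markers of the cell type they are labelled as, and neither Pax6 (log2 fold change -1.22, adjusted p = 0.132) nor Nes (0.21, adjusted p = 0.689) separated them by the test over all 6 libraries. In bulk RNA, fewer cells of a type and less RNA per cell cannot be told apart. Without s15, Pax6 was lower in MBD2t (adjusted p = 0.00367).

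Of 16582 genes tested, 462 (2.79%) were called, with an adjusted p under 0.05 and an absolute log2 fold change over 1. MBD2t was higher for 346 of them (2.09% of the genes tested) and lower for 116 (0.700%). The called genes included 196 that were more than 4-fold higher and 28 that were more than 4-fold lower. In 457 of the 462, the MBD2t libraries did not overlap those labelled MBD2a, which also held for 35.0% of all genes tested. The median gene was at -0.03 on the log2 scale, a value that the normalisation itself holds near 0. With the MBD2t libraries summed to 1 sample, as befits 1 clone, 92 genes were called (0.538%), 90 higher (0.526%) and 2 lower (0.0117%), and 88 of them were among the 462. Leaving out s15 gave 763 calls (4.55%), 584 higher (3.49%) and 179 lower (1.07%), including 404 of the 462. Leaving out any other single library lowered the count, to 227 without s13, 257 without s14, 272 without s22 and 232 without either s23 or s24.

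**Figure D1:**
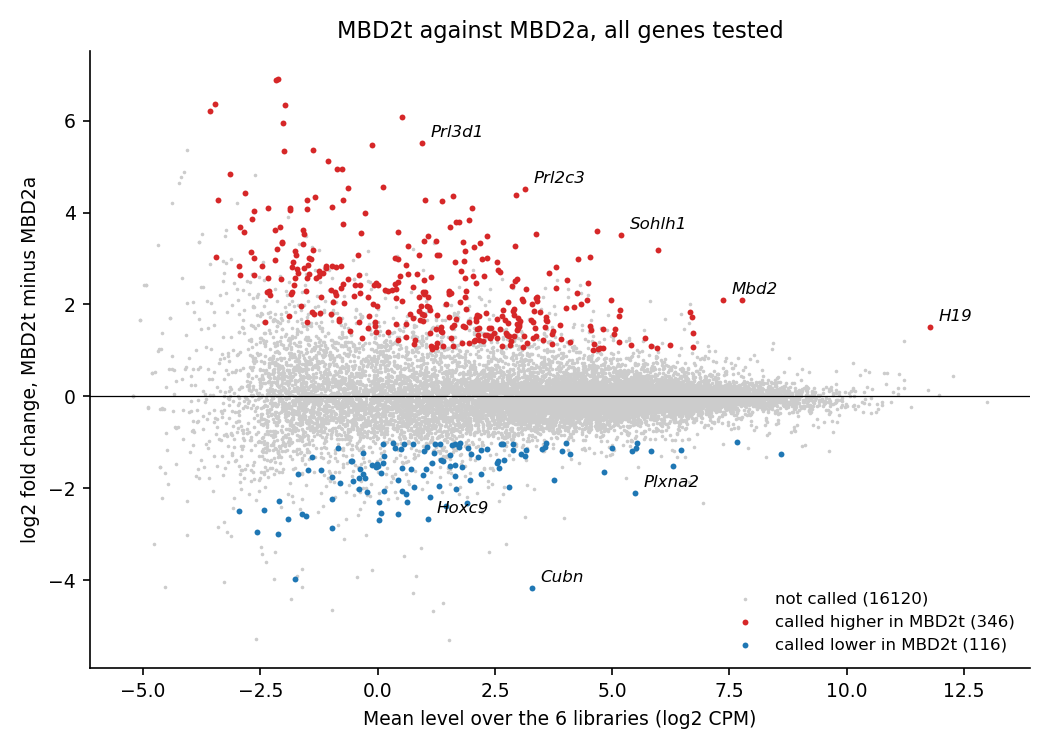
Each point is one of the 16582 genes tested, with its mean level over the 6 libraries (log2 CPM) on the horizontal axis and its log2 fold change, MBD2t minus MBD2a, on the vertical axis. Red points are the 346 genes called higher in MBD2t and blue points the 116 called lower, and the red points reach farther from 0 than the blue ones, with Mbd2 and H19 among the most abundant called genes.

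Against the Mbd3KO reference the 2 lines stood at different distances. Between MBD2t and Mbd3KO, 1 gene of 16582 was called (0.00603%), Mbd2 itself, with a log2 fold change of 2.36 (edgeR adjusted p = 2.8894e-05), and 406 genes had an unadjusted p under 0.05. Between the libraries labelled MBD2a and Mbd3KO, 646 genes were called (3.90%), 117 higher (0.706%) and 529 lower in MBD2a (3.19%), and 3490 had an unadjusted p under 0.05. These comparisons share the Mbd3KO libraries. Over the 462 genes called between MBD2t and MBD2a, the median log2 difference from Mbd3KO was 0.01 for MBD2t and -1.72 for MBD2a, and the Mbd3KO mean was nearer to MBD2t for 451 of them (97.6%, against 72.4% of all genes tested). These genes were selected for their difference between the lines. Leaving out libraries moved the MBD2a against Mbd3KO count to 358 without s13, 338 without s14, 1035 without s15 and 414 without the Mbd3KO library s06, and a fit of those 2 groups alone gave 140.

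The difference between Mbd3KO and WT, which shares no library with the comparison, had the same sign as the difference between MBD2t and MBD2a for 373 of the 462 called genes (80.7%), against 62.9% of all genes tested. That count was 280 of the 346 higher genes and 93 of the 116 lower ones, where 5495 genes (33.1%) were called between Mbd3KO and WT. For 229 of the 462 genes (49.6%) the MBD2a mean lay between WT and MBD2t, which was near the 52.8% of all genes tested. For 156 of them (33.8%, against 11.2% of all genes tested) the WT mean lay between MBD2a and MBD2t. The called genes were selected for an absolute log2 fold change over 1 between these lines. Among all genes tested, the median was 0.21 for those higher in MBD2t and -0.21 for those lower. A WT mean falls more easily within a wider gap, so these shares cannot show whether MBD2a passed WT more often among called genes. The same limit holds for the 49.6%. Placed on the axis from the WT mean (0%) to the Mbd3KO mean (100%) over the genes called between those lines, the MBD2t libraries lay at 96.7, 98.9 and 94.8%. The libraries labelled MBD2a lay at 72.5, 74.2 and 98.2%. Thus s15 lay among the MBD2t libraries and s13 and s14 lay lower, and the groups overlapped. The MBD2a clones had a mean of 81.6 ± 14.4% (SD, n = 3), whereas the MBD2t mean of 96.8% is that of 1 clone, and the SD of 2.08% between its libraries is not a spread between clones. With 1 clone against 3, an exact two-sided permutation test of the absolute difference cannot go below p = 0.25.

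**Figure D2:**
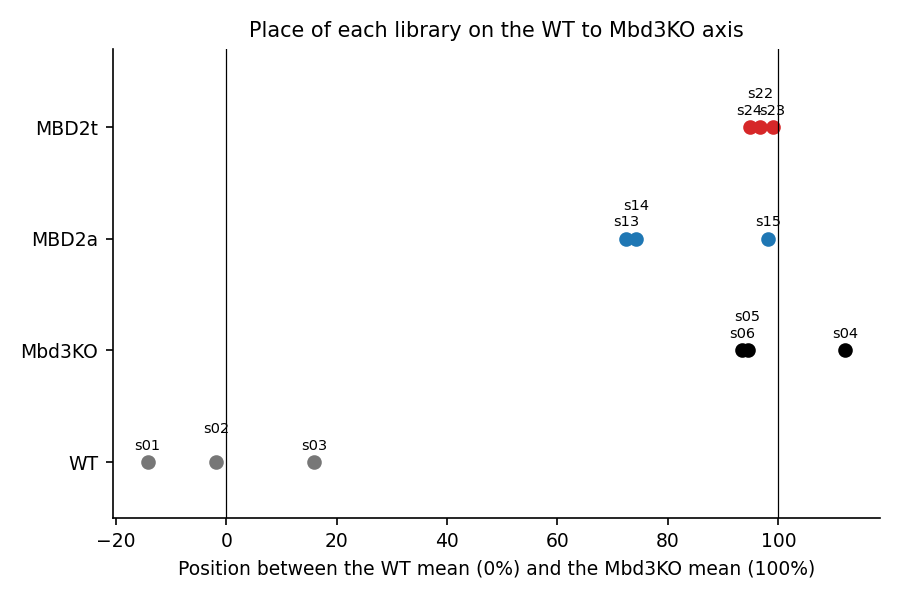
Position of each library of 4 lines on the axis from the WT mean (0%) to the Mbd3KO mean (100%), in percent, 1 point per library; the WT and Mbd3KO libraries define the axis. The 3 MBD2t libraries and the MBD2a library s15 lie between 94.8 and 98.9%, and the MBD2a libraries s13 and s14 at 72.5 and 74.2%.

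Since MBD2 binds methylated CG dinucleotides, the start regions of 4 of the called genes are shown: a placental hormone gene, an endothelial receptor gene and a germline factor gene that were higher in MBD2t, and a posterior homeobox gene that was lower. Each covers 250 bases before and 50 bases after the RefSeq gene start in GRCm38.p6, 5′ to 3′ on the gene's strand, with every CG in capitals. They lie at chr13:27093939-27094238 (+), chr4:118489800-118490099 (-), chr2:25847199-25847498 (-) and chr2:74697513-74697812 (+).
Prl3d1: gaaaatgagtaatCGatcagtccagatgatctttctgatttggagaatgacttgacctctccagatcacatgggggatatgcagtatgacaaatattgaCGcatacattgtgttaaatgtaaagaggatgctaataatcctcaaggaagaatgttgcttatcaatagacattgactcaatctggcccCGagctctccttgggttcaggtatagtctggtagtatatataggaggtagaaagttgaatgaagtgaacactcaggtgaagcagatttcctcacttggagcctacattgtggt
Tie1: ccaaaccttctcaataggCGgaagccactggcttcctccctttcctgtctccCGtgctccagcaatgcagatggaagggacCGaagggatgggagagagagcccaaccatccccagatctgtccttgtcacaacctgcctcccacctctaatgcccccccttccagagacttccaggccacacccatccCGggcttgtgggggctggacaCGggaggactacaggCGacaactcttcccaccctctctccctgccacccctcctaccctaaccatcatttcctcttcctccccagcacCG
Sohlh1: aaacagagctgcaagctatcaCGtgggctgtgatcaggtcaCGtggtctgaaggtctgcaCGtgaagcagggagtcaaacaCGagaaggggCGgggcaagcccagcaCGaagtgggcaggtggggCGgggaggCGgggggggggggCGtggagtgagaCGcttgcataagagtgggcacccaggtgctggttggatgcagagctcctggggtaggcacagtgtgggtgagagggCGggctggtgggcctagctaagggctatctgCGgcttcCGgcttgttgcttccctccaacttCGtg
Hoxd9: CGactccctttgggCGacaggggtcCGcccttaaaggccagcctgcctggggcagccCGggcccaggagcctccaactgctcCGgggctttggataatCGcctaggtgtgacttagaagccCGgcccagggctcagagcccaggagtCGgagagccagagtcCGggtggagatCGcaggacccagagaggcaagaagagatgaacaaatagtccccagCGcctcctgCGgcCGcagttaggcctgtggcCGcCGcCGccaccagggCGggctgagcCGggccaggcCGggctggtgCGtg
They hold 3, 7, 14 and 20 CG, respectively. Over the 27025 promoters of the same length in the RefSeq table, 94.2% held a CG and the median was 7 (quartiles 3 and 21). The 4 shown lie within these quartiles. The start regions of Prl7d1 and Robo4, also drawn, held 4 and 2 CG, that of Robo4 below the lower quartile. CG content was not compared between called and other genes, and only 75.6% of the tested genes could be matched to the table. No methylation was measured in these libraries.

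A large group among the higher genes was placental. Trophoblast giant cells and spongiotrophoblast express prolactin-like hormones whose genes lie on chromosome 13, between 12883089 (Prl2c3) and 28243480 (Prl5a1) in mm9. Of 26 members, 17 were tested, 11 were called higher in MBD2t (against 2.09% of all genes tested) and none lower, with a median log2 fold change of 4.10 against -0.03 over all genes tested. Some members, such as Prl7a1 at 0.0288 to 0.118 CPM in MBD2a, passed the filter on low counts only through other lines. Members this low in MBD2a could hardly be called lower, so these counts depend on the filter. This family and those named as families below were set up after values had been seen. Prl3d1, placental lactogen I, was at 17.6, 13.7 and 8.92 CPM in MBD2t and at 0.144, 0.236 and 0.484 CPM in MBD2a. It was at 15.8 to 36.6 CPM in Mbd3KO and at most 0.413 CPM in WT, so MBD2t lay near Mbd3KO and the libraries labelled MBD2a lay near WT. The log2 fold change between them was 5.51 (SE 0.70, edgeR adjusted p = 0.00017652; 0.00458 with MBD2t summed). Prl2c3, a proliferin gene, was at 70.1, 48.0 and 31.5 CPM in MBD2t and at 0.576, 1.71 and 4.20 CPM in MBD2a (log2 fold change 4.52, adjusted p = 0.00089487). No library of either group overlapped the other for these hormones, although s15 was the highest of the MBD2a libraries in both. Prl2c2 (log2 fold change 4.38), Prl7d1 (4.09), Prl3d2 (4.54) and Prl3d3 (4.94) were also called, and reads may be split among the near-identical Prl2c and Prl3d copies. Summed over the 17 genes, the family was at 96.9 to 215 CPM in MBD2t, 3.45 to 15.8 CPM in MBD2a, 222 to 286 CPM in Mbd3KO and 2.60 to 8.69 CPM in WT. The summed MBD2t fit called 5 of them and the fit without s15 called 13.

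The placental cathepsins, proteases encoded next to each other on the same chromosome, gave 3 higher (against 2.09% of all genes tested) and no lower calls among 5 tested, with the same limit of the filter. Ctsj was at 19.9, 16.2 and 7.10 CPM in MBD2t and at 0.863, 0.295 and 3.01 CPM in MBD2a (log2 fold change 3.36, adjusted p = 0.019956). Ctsq and Ctsr had log2 fold changes of 3.54 and 3.63, and none of the 3 was called with MBD2t summed. Of 5 pregnancy-specific glycoprotein genes tested none was called, although their median was 3.16. On the wider list of trophoblast genes, 7 of 32 were called higher (against 2.09% of all genes tested) and none lower, with a median of 1.61. Of the 32, 29 were above 0, against 7646 of the 16582 genes tested. The called ones were prolactin and cathepsin genes and the homeobox gene Esx1, at 173, 189 and 228 CPM in MBD2t and 34.0, 49.3 and 81.6 CPM in MBD2a (log2 fold change 1.84, adjusted p = 0.04076). The early trophoblast determinants were not among them: Cdx2 had a log2 fold change of -0.25, Gata3 of 0.17 and Elf5 of 1.80 (adjusted p = 0.883, 0.802 and 0.109). The keratin genes and other early markers were divided by s15. Krt7 was at 271 to 317 CPM in MBD2t, at 41.6 and 67.2 CPM in s13 and s14, and at 385 CPM in s15. Hand1, a giant cell transcription factor, was at 38.4 to 53.1 CPM in MBD2t, at 1.15 and 3.03 CPM in s13 and s14 and at 20.5 CPM in s15. Of all genes tested, 3.49% were called higher without s15. Without s15, 14 trophoblast genes were called higher, against 4 with MBD2t summed.

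**Figure D3:**
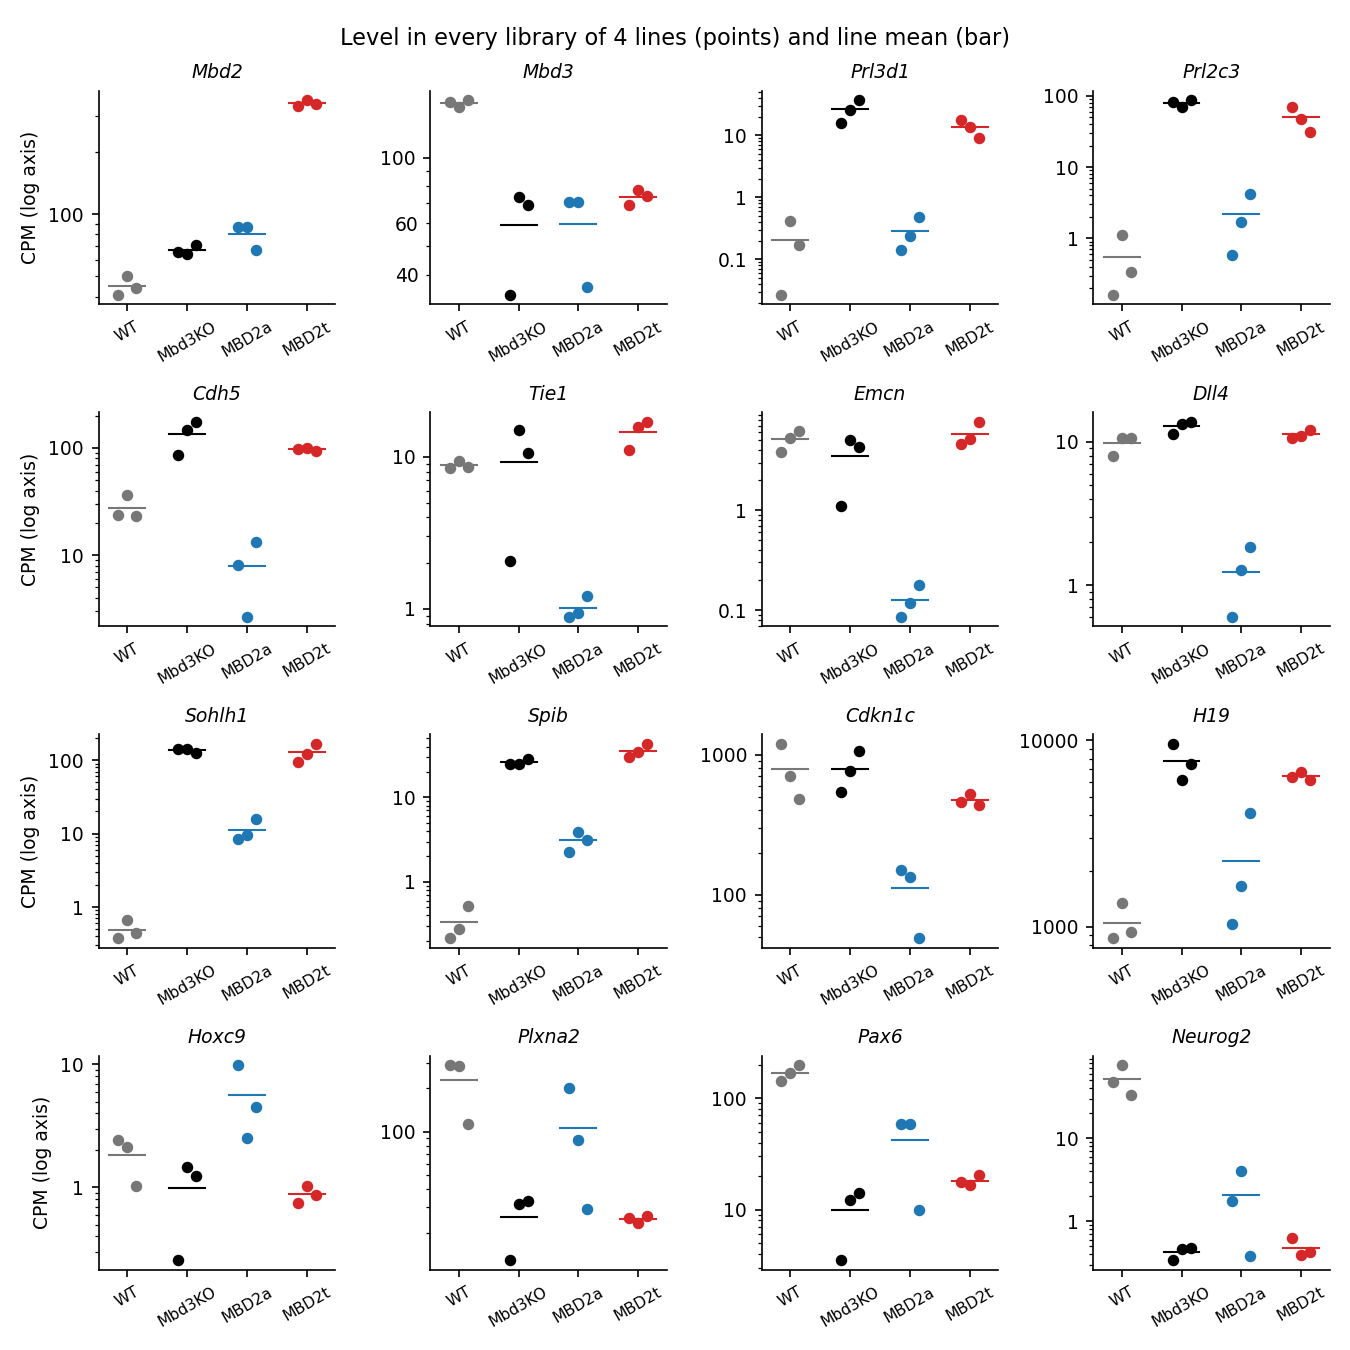
Level of 16 genes in every library of WT, Mbd3KO, MBD2a and MBD2t (CPM, log axis, 1 panel per gene with its own axis), with points for libraries and a bar for the mean of each line. For Prl3d1, Prl2c3, Sohlh1 and Spib, all MBD2t libraries lie above all MBD2a libraries and near the level of Mbd3KO, whereas for Tie1, Emcn and Dll4 the MBD2a libraries lie below the WT libraries.

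Endothelial genes formed a still larger group. Among 46 genes of blood vessel endothelium, 28 were called higher in MBD2t and none lower (16 with MBD2t summed and 28 without s15), where 2.09% of all tested genes were called higher. The median log2 fold change was 1.94 and 42 of the 46 were above 0. Cdh5, which encodes the junction protein VE-cadherin (chr8:106625525-106668402 in mm9), was at 98.3, 100 and 93.0 CPM in MBD2t and at 8.12, 2.68 and 13.2 CPM in MBD2a. Its log2 fold change was 3.60 (SE 0.46, adjusted p = 0.00017652), and the groups were far apart. Tie1, an endothelial receptor tyrosine kinase, was at 11.2, 15.6 and 17 CPM in MBD2t and at 0.892, 0.943 and 1.22 CPM in MBD2a (log2 fold change 3.83, adjusted p = 0.0021793). Emcn, a sialomucin of venous and capillary endothelium, was at 4.62, 5.22 and 7.64 CPM in MBD2t and at 0.0863, 0.118 and 0.178 CPM in MBD2a (log2 fold change 5.46, adjusted p = 4.5427e-05). In each of these the 3 MBD2a libraries were lower than every WT library as well. Cldn5, the tight junction claudin of endothelium, was at 9.25 to 13.8 CPM in MBD2t and 0.331 to 0.854 CPM in MBD2a. The VEGF receptor gene Kdr was at 14.3 to 19.3 CPM in MBD2t and 1.41 to 4.49 CPM in MBD2a, and Etv2, the transcription factor that starts the endothelial lineage, at 1.25 to 1.72 CPM and 0.153 to 0.442 CPM. Their log2 fold changes were 4.24, 2.7 and 2.55 (adjusted p = 0.00099274, 0.0079574 and 0.018467).

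Of the same 46 genes, 26 were called lower in the libraries labelled MBD2a than in WT and 2 higher, where 30.1% of all genes tested were called, 13.7% lower and 16.5% higher. Of the 46, 24 were called lower in MBD2a than in Mbd3KO (against 3.19% of all genes tested); the MBD2a libraries enter all of these comparisons. None was called between MBD2t and Mbd3KO. The family summed to 522 to 595 CPM in MBD2t, 218 to 336 CPM in MBD2a, 400.49 to 636 CPM in Mbd3KO and 408 to 499.86 CPM in WT. The low Mbd3KO value was that of s04, which also held less Tie1 (2.06 CPM, against 15.1 and 10.6 CPM) and Cldn5 than the other Mbd3KO libraries. Not every endothelial gene took part: Eng, Egfl7, Nrp1 and Erg had log2 fold changes of 0.01 to 0.10, and Flt1 of -1.14 (adjusted p = 0.436). On the list of mesoderm genes, which shares Cdh5, Kdr, Etv2 and other endothelial members, 7 of 23 were called higher (against 2.09% of all genes tested) and none lower. The called gene outside the endothelial family was Foxf1, a lateral mesoderm transcription factor, at 25.4, 31.4 and 45.5 CPM in MBD2t and 6.96, 2.39 and 6.52 CPM in MBD2a (log2 fold change 2.69, adjusted p = 0.012144). The early mesoderm genes T and Mixl1 were at 0.972 CPM or less in all 6 libraries and were not called. The blood list gave no call among 8 tested, with 7 of them above 0 and a median of 0.74. Csf1r, the macrophage growth factor receptor gene, was at 12.2, 13.1 and 9.87 CPM in MBD2t and at 1.3815, 1.47 and 5.50 CPM in MBD2a, without overlap (2.07, adjusted p = 0.22016), while the macrophage gene Cd68 was at 13.3 to 14.6 CPM and 8.61 to 16.3 CPM (0.27). The red cell genes Hba-a1 and Gata1 were at 0.765 CPM or less in the 6 libraries. The list summed to 24.6 to 30.9 CPM in MBD2t and to 10.965 to 23.6 CPM in MBD2a.

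The Notch pathway links neighbouring cells through membrane-bound ligands and is used both in neurogenesis and in vessels, and Dll4 and Notch4 are also in the endothelial family. Of 20 pathway genes, 8 were called higher in MBD2t (against 2.09% of all genes tested) and none lower, with a median of 0.30. With MBD2t summed 3 were called (against 0.538%), and without s15 6 were called higher (against 3.49%) and 1 lower (against 1.07%). The ligand Dll4, active in arterial endothelium, was at 10.7, 11 and 12.1 CPM in MBD2t and at 0.604, 1.27 and 1.86 CPM in MBD2a (log2 fold change 3.17, adjusted p = 1.8024e-05). The ligand Dll1, which acts in neural progenitors, was at 2.36 to 3.47 CPM in MBD2t and 4.51 to 10.0 CPM in MBD2a (log2 fold change -1.10, adjusted p = 0.067974), and was called lower without s15 (adjusted p = 0.033982). The receptor Notch4 was called higher (1.75, adjusted p = 0.0034246), whereas Notch1, Notch2 and Notch3 had log2 fold changes of -0.20, 0.00 and -0.52 and were not called. Among the glycosyltransferases that modify the receptors, Lfng (2.35) and Mfng (1.10) were called and Rfng (0.11) was not, and the call of Mfng was lost without s15 (adjusted p = 0.0576). Among the target genes, Heyl (3.27), Hey1 (1.46) and Hes7 (1.28) were called, while Hes1 (0.27), Hes5 (-0.27) and Hey2 (-0.65) were not, and the call of Hey1 was lost without s15 (adjusted p = 0.0642). The reads of Dll4 may include the overlapping antisense gene Gm14207, and the same holds for Cubn and Ankrd37 with their antisense neighbours, because the strand setting of the counting is not given in the sources used here.

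**Figure D4:**
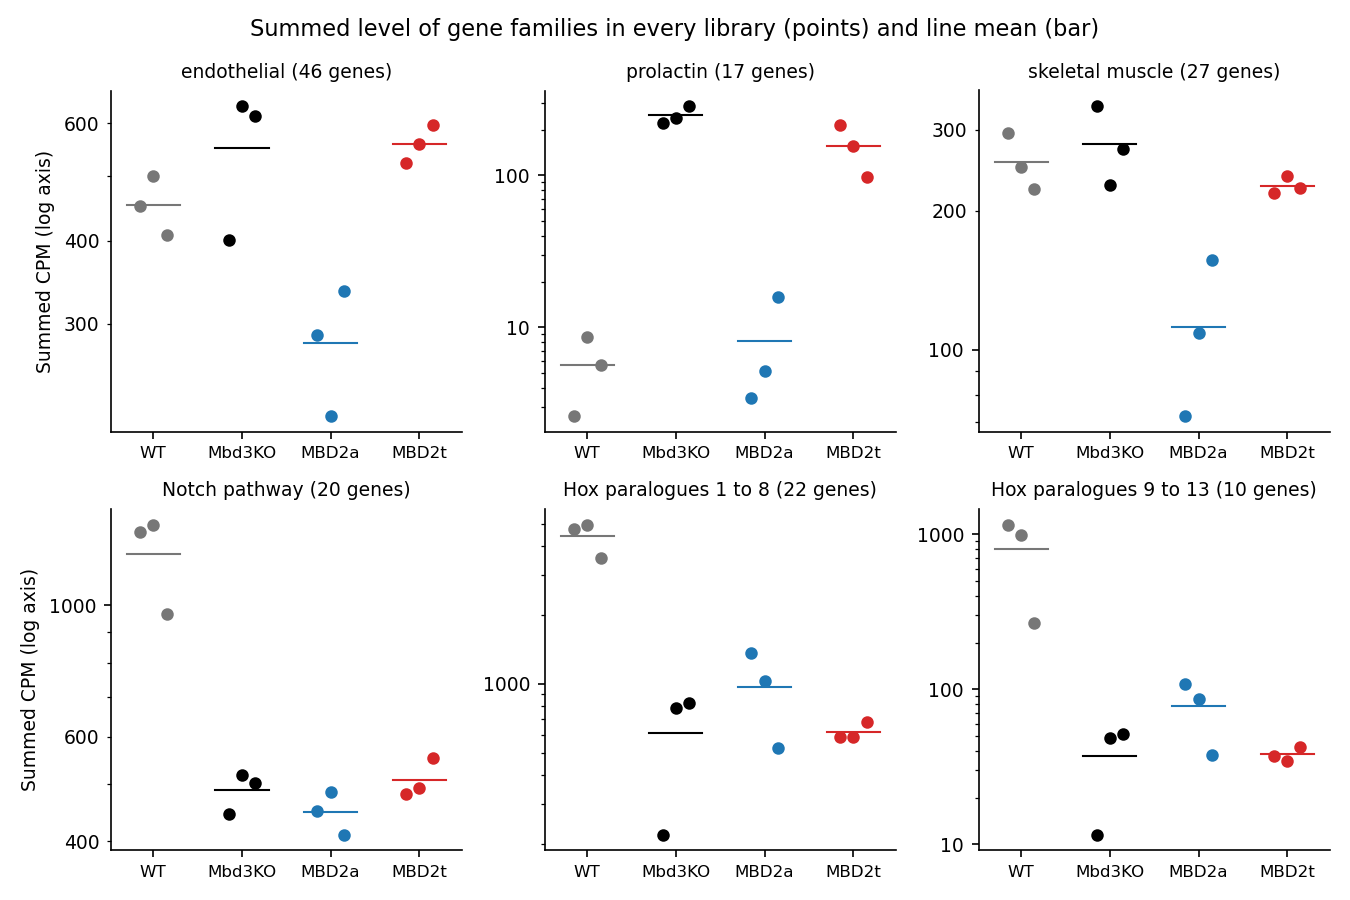
Summed level of 6 gene families in every library of WT, Mbd3KO, MBD2a and MBD2t (CPM, log axis, 1 panel per family with its own axis), with points for libraries and a bar for the mean of each line. The endothelial, prolactin and skeletal muscle sums of all 3 MBD2t libraries lie above those of all 3 MBD2a libraries, and in the Hox panels s15 lies apart from the other MBD2a libraries. The WT points of the skeletal muscle panel are mostly Pax3 and Pax7 reads.

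Germline genes gave 2 calls among 46 tested, both higher in MBD2t, with a median of 0.33, where 2.09% of all genes tested were called higher. Sohlh1 (chr2:25698515-25702768 in mm9), a transcription factor of spermatogonia and oocytes, was at 95.4, 120 and 167 CPM in MBD2t and at 8.4, 9.63 and 15.6 CPM in MBD2a. In Mbd3KO it was at 125 to 144 CPM and in WT at 0.660 CPM or less. The log2 fold change was 3.51 (SE 0.39, adjusted p = 4.5427e-05), and MBD2a thus lay between WT and the other 2 lines without overlapping any. Khdc3, a gene of the oocyte subcortical complex, was at 161, 184 and 228 CPM in MBD2t and at 16, 24.1 and 23.2 CPM in MBD2a (log2 fold change 3.18, adjusted p = 0.0014993). It overlaps Gm20509 on the same strand, so its count is uncertain. Both were also called with MBD2t summed and without s15. The germline genes Dazl (0.92, adjusted p = 0.66813) and Tex19.1 (0.62, adjusted p = 0.74494) were not called, although both had higher means in MBD2t.

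Of 36 imprinted genes tested, 2 were called (against 2.79% of all genes tested), both higher in MBD2t and both from distal chromosome 7. Cdkn1c, which encodes the cyclin-dependent kinase inhibitor p57, was at 459, 528 and 440 CPM in MBD2t and at 150, 134 and 49 CPM in MBD2a (log2 fold change 2.10, adjusted p = 0.0081984). All 3 MBD2a libraries also lay below the WT range of 486 to 1196 CPM. The long noncoding RNA H19 was at 6378, 6769 and 6139 CPM in MBD2t and at 1035, 1648 and 4077 CPM in MBD2a (log2 fold change 1.51, adjusted p = 0.033557), with s15 nearest to MBD2t. Peg10, a retrotransposon-derived gene needed in the placenta, followed the same order at 4079, 4071 and 3781 CPM against 1095, 841 and 3211 CPM, and was not called (1.21, adjusted p = 0.079752). Of all genes tested, 3.49% were called higher without s15. Without s15, 9 imprinted genes were called higher, Peg10 among them, and with MBD2t summed none.

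Among the remaining genes with the largest rises was Spib, which encodes a transcription factor of B cells and dendritic cells. It was at 30.0, 34.0 and 43.1 CPM in MBD2t and at 2.27, 3.89 and 3.13 CPM in MBD2a (log2 fold change 3.53, adjusted p = 2.7738e-05). The groups did not overlap. The X-linked lymphocyte-regulated genes, a lymphoid and germ cell family of close copies, gave 3 higher calls among 9 tested (against 2.09% of all genes tested). These were Xlr5a, Xlr5b and Xlr5c, with log2 fold changes of 3.80, 3.69 and 3.50. Reads of these copies cannot be assigned with certainty, and none was called with MBD2t summed. Cspg4, the NG2 proteoglycan of pericytes and glial precursors, was at 13.2, 15.0 and 22.5 CPM in MBD2t and at 1.73, 1.41 and 1.4 CPM in MBD2a (3.49, adjusted p = 0.0019226). It was the only call among 11 neural crest and glia genes, of which the defining gene Sox10 was at 8.94 to 10.9 CPM in MBD2t and 0.460, 2.36 and 10.7 CPM in MBD2a.

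Interferon-stimulated genes, which encode antiviral effectors, were divided by s15. None of 50 passed both thresholds over the 6 libraries, although 48 had a log2 fold change above 0 and the median was 0.84. The summed level of the 50 genes was 1840 to 1984 CPM in MBD2t, 923 and 1037 CPM in s13 and s14, 1795 CPM in s15 and 352 to 492 CPM in WT. Without s15, 23 of the 50 were called higher in MBD2t (against 3.49% of all genes tested), and with MBD2t summed none. MHC class I presentation genes gave no call among 19 tested, with a median of 0.33. Without s15, 2 of the 19 were called higher (against 3.49% of all genes tested).

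**Figure D5:**
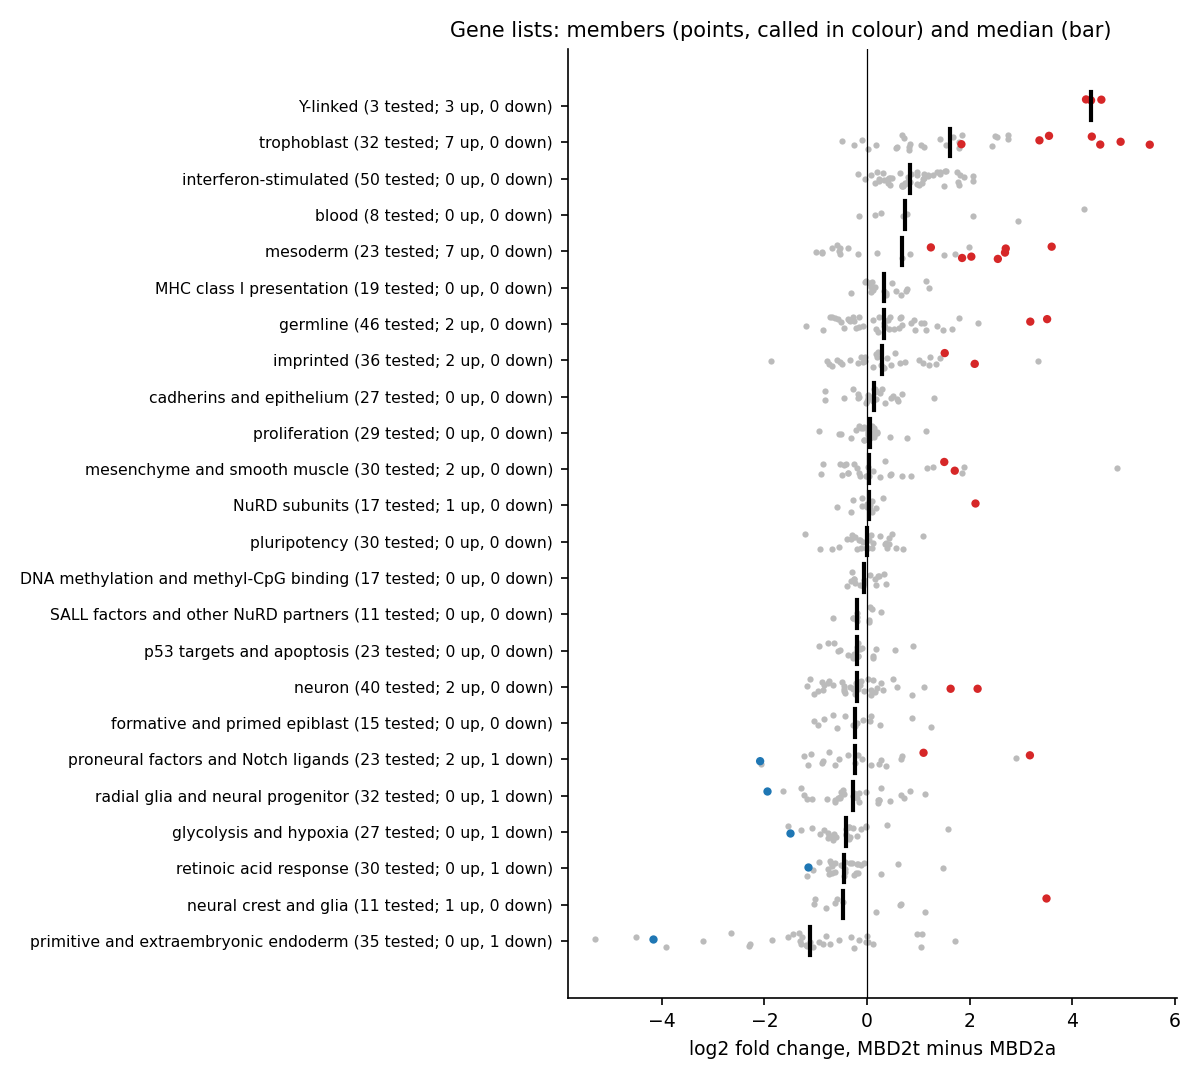
Log2 fold change, MBD2t minus MBD2a, of every tested member of 24 gene lists (grey points; red for members called higher and blue for members called lower), with a black bar at each list's median and the number tested and called in the row's name. The trophoblast and mesoderm lists hold 7 calls each, and interferon-stimulated genes lie nearly all right of 0 without a call.

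The 116 lower genes were fewer than the higher ones. Dscaml1, a cell adhesion gene, was 1 of the 2 genes called lower with MBD2t summed and is named because that count was so small. Homeobox genes of the Hox clusters, which set position along the body axis, were among them. Of 22 tested genes of paralogue groups 1 to 8, 2 were called lower in MBD2t (against 0.700% of all genes tested; 4 without s15, against 1.07%) and 21 were below 0 (median -0.73). Of 10 genes of groups 9 to 13, Hoxc9, Hoxc13 and Hoxd9 were called lower (against 0.700% of all genes tested) and all were below 0 (median -1.70). Hoxc9 was at 0.749, 1.03 and 0.869 CPM in MBD2t and at 9.81, 2.53 and 4.54 CPM in MBD2a (log2 fold change -2.67, adjusted p = 0.0068958), against 1.02 to 2.42 CPM in WT. The summed level of groups 1 to 8 was 584 to 679 CPM in MBD2t and 1360 and 1032 CPM in s13 and s14, but 527 CPM in s15, against 3552 to 4967 CPM in WT. On the retinoic acid list 1 of 30 tested was called lower (against 0.700% of all genes tested) and none higher, while 27 were below 0 and the median was -0.44. Without s15, 3 of this list were called lower (against 1.07%).

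Neural genes were called in both directions, where 2.79% of all genes tested were called. Of 23 proneural factors and Notch ligands, Dll4 and Mfng were called higher and 1 was called lower. Of the 23, 14 were below 0 (median -0.23), against 8933 of the 16582 genes tested. Neurog2, a proneural bHLH factor, was at 0.624, 0.398 and 0.425 CPM in MBD2t and at 1.78, 4.09 and 0.382 CPM in MBD2a, against 33.0 to 75.4 CPM in WT. It was called lower (log2 fold change -2.08, adjusted p = 0.033529), but the groups overlapped at s15. Zic1, a zinc finger factor of the dorsal neural tube, was at 1.46, 1.01 and 1.40 CPM in MBD2t and at 6.68, 5.74 and 2.73 CPM in MBD2a (-1.96, adjusted p = 0.040025), far below the WT range of 70.5 to 188 CPM. It was the only call among 32 radial glia and progenitor genes, of which 22 were below 0 (median -0.27). Of 40 neuron genes, 2 were called, both higher in MBD2t, whereas 26 of the 40 were below 0 (median -0.20, and -0.51 without s15). Rbfox3, which encodes the neuronal nuclear antigen NeuN, was at 6.32, 7.21 and 9.54 CPM in MBD2t and at 2.07, 1.77 and 1.35 CPM in MBD2a (2.15, adjusted p = 0.031356), and Chga, a granin of secretory vesicles, had a log2 fold change of 1.63 (adjusted p = 0.012588). The tubulin gene Tubb3 and the microtubule genes Map2 and Dcx were not called (log2 fold changes 0.59, -0.24 and -0.17), and all 6 libraries held at most 85.0, 35.6 and 21.8 CPM of them against at least 588, 237 and 108 CPM in WT. Leaving out s15, 3 radial glia genes and 4 proneural genes were called lower (against 1.07% of all genes tested), and the call of Rbfox3 was lost (adjusted p = 0.0729).

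The largest fall among called genes with groups that did not overlap and a mean log2 CPM of at least 1 was that of Cubn (chr2:13197965-13413551 in mm9), the endocytic receptor cubilin of visceral endoderm. It was at 3.79, 3.37 and 2.49 CPM in MBD2t and at 43.5, 4.68 and 126 CPM in the libraries labelled MBD2a (log2 fold change -4.18, SE 1.09, adjusted p = 0.03344). The groups did not overlap, although s14 lay just above MBD2t, and the call was lost without s15 (adjusted p = 0.0973). Cubn was the only call among 35 primitive and extraembryonic endoderm genes, whose median was -1.11 with 29 below 0. Larger differences, of the apolipoprotein genes Apoa1 (-5.29, adjusted p = 0.080687) and Apob (-4.49, adjusted p = 0.10392), did not pass the test. Gata4, a defining factor of that lineage, was at 6.55 to 7.96 CPM in MBD2t and at 51.3, 8.4 and 80.7 CPM in MBD2a and was not called (-2.65, adjusted p = 0.11944). The basement membrane genes Col4a1 and Lama1 were likewise high in s13 and s15 only. The endoderm list summed to 2263 to 2394 CPM in MBD2t and to 6203, 1654 and 6809 CPM in s13, s14 and s15. The libraries labelled MBD2a thus lay on both sides of MBD2t for this lineage.

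Several of the other large falls were those of signalling and patterning genes. Msx1, a BMP-responsive homeobox gene, was at 1.93 to 2.79 CPM in MBD2t and at 10.9, 9.96 and 2.93 CPM in MBD2a (log2 fold change -1.81, adjusted p = 0.015865). The secreted Wnt antagonist gene Frzb (-2.01) and the carboxypeptidase gene Cpz (-1.98) were also called, at 1.6 to 1.83 CPM against 3.62 to 11.9 CPM and at 3.13 to 4.33 CPM against 8.97 to 20.5 CPM. Plxna2, a semaphorin receptor of axon guidance, was at 25.2, 23.1 and 26.0 CPM in MBD2t and at 202, 88.2 and 29.2 CPM in MBD2a (-2.10, adjusted p = 0.031903). It lies in the part of chromosome 1 that was low in s15, at chr1:196446023-196643063. Without s15 it was still called, but s15 was the MBD2a library nearest to MBD2t, so leaving it out could hardly undo the call. The chromosome 1 difference of s13 and s14 from MBD2t remains in that fit. Col4a6 (-2.38), Gpr179 (-2.33), Slc25a21 (-2.19) and Masp1 (-1.74) were also among the 12 largest falls, and the call of Masp1 was lost without s15 (adjusted p = 0.0761). None of these falls was called with MBD2t summed.

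Several lists gave no call. Apart from Mbd2, no other of 17 NuRD subunit genes was called, and their median was 0.03. The 17 genes of DNA methylation and methyl-CpG binding had a median of -0.06, and the 11 SALL factors and other NuRD partners a median of -0.19. Of 30 pluripotency genes, still expressed in both lines, none was called and the median was 0.00. Without s15, 2 of the 30 were called lower (against 1.07% of all genes tested) and the median was 0.14. Nanog was at 115, 108 and 88.2 CPM in MBD2t and at 46.1, 94.7 and 91.6 CPM in MBD2a, against 0.805, 3.33 and 30.7 CPM in WT, so the groups overlapped (log2 fold change 0.42, SE 1.13, adjusted p = 0.901). Pou5f1 had a log2 fold change of 0.10 (SE 0.75) and Sox2 of 0.08 (SE 0.30). With errors of this size, differences well above the fold threshold would not have been called for Nanog and Pou5f1. Formative epiblast (15 tested), p53 target (23), proliferation (29) and cadherin and epithelium (27) genes gave no call either, with medians of -0.23, -0.19, 0.05 and 0.14. Without s15, 1 formative gene was called higher, 1 proliferation gene lower, and 1 cadherin and epithelium gene in each direction. Of all genes tested, 3.49% were then called higher and 1.07% lower. Among glycolysis and hypoxia genes, 1 of 27 was called, Ankrd37, lower in MBD2t (-1.5, adjusted p = 0.04349) with overlapping groups, and not without s15 (adjusted p = 0.0878). Of the 27, 25 were below 0, and the median was -0.40. The list summed to 7732.5 to 7980.5 CPM in MBD2t and to 6188.5, 15113 and 11826 CPM in s13, s14 and s15. Of 30 mesenchyme and smooth muscle genes, Mfap2 (1.71) and Col6a1 (1.5), both of the extracellular matrix, were called higher (against 2.09% of all genes tested).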

How the data were processed

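Poly(A) RNA of NPCs was sequenced by the authors as single-end directional libraries. Per the labels and the study's methods, reads were trimmed with Trim Galore (version 0.6.6) and aligned with STAR to mm9. The deposited table holds raw read counts per gene, whole numbers made by the authors with QuasR for 25400 genes in 24 libraries; the strand setting of the counting and the filters on multiply aligned reads are not given in the sources used here. The 6 ChIP-seq samples were not used. The columns name the line and carry no replicate number.

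Low genes were removed with filterByExpr, TMM factors were computed, and the quasi-likelihood test of edgeR (version 4.0.16, legacy = TRUE, R 4.3.3) was fitted on all 24 libraries with 1 mean per line, so that the lines share the estimate of spread. P-values were adjusted by Benjamini-Hochberg over all 16582 genes tested, and genes with adjusted p under 0.05 and absolute log2 fold change over 1 were called. The SE is the log2 fold change over the square root of F. CPM are TMM-normalised, and library positions were computed on log2 values with 1 count added as prior. The scripts were tested on simulated data with the legacy form of the test. The simulated MBD2t libraries were drawn as independent samples, so repeats of 1 clone were not simulated. Gene positions are those of the GENCODE vM1 annotation of mm9.

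Named genes were Mbd2, Mbd3, marker genes of the study, the 12 strongest called changes in each direction (groups without overlap, mean level of 1 or more on the log2 CPM scale), up to 4 called members per list, and for lists with fewer than 2 calls the 2 most abundant members; other genes were named after their values were seen, and some that the rule takes are not reported here. The members and lists were chosen with earlier results of these data known. Alternatives were DESeq2 (version 1.42.0), other normalisations, filters, thresholds and libraries left out. Values cover counting and library spread only; 18 genes at 0 in all libraries of 1 group, 2 of them called, have fold changes that depend on the prior count.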

Additional observations from a re-analysis of the deposited data

How the results depend on the processing

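The 462 calls became 694 with edgeR's likelihood ratio test, 746 with no fold threshold, 75 with glmTreat against a 2-fold change, 1148 with unadjusted p, 92 with MBD2t summed, and 227 to 763 with 1 library left out. The 346 higher calls became 520 with the bias-adjusted quasi-likelihood test, which was chosen after seeing the data, 90 with MBD2t summed, 74 with glmTreat, 780 with unadjusted p, and 173 to 584 with 1 library left out. The 116 lower calls became 192 with DESeq2, 189 with the likelihood ratio test, 282 with no fold threshold, 1 with glmTreat, 368 with unadjusted p, 2 with MBD2t summed, and 36 to 179 with 1 library left out. Some of these settings used fewer samples or a stricter threshold, and others a looser threshold or another test. Fewer libraries did not always lower the count, which rose to 763 without s15. The cause of these changes was not tested.

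The count with the sign of Mbd3KO minus WT became 63 with MBD2t summed and 173 to 666 with 1 library left out; its share stayed between 68.5 and 87.3%. MBD2a against Mbd3KO gave 140 calls in a fit of those lines alone and 338 to 1035 with 1 library left out. MBD2t against Mbd3KO gave 1 call in every fit run. Higher calls made up 74.9% of calls, 97.8% with MBD2t summed and 68.5% without s14.

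Of the 43 called genes named by rule, 16 were also called with MBD2t summed and 24 (without s13) to 38 (without s15) with 1 library left out, and none changed sign under any alternative. Among uncalled ones, Klf4 was at 0.0033 with RLE and 0.0030 with DESeq2, and leaving out 1 library moved Klf4 between -0.33 and 0.36, Klf5 between -0.23 and 0.23, Dcx between -0.67 and 0.28, Dnmt3a between -0.23 and 0.070, Dppa2 between -0.18 and 0.52, Mcm3 between -0.16 and 0.034, Ncam1 between -0.47 and 0.11, Neurog1 between -1.69 and 0.070, Pdia3 between -0.028 and 0.14, Pou5f1 between -0.088 and 0.25, Rbbp7 between -0.064 and 0.32, Sox2 between -0.086 and 0.39 and Vim between -0.47 and 0.28. No paired analysis was possible because the deposited columns carry no replicate numbers.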

Other observations

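Skeletal muscle genes, which no list of the comparison covered, were called higher in MBD2t for 11 of 27 tested (38 in the table) and lower for none, with a median log2 fold change of 0.89, where 2.09% of all genes tested were called higher. With MBD2t summed 2 were called (against 0.526%), and without s15 9 (against 3.49%). The family was assembled after values had been seen, and the limit of the filter given for the prolactin genes holds for members such as Myod1 and Myog. Myod1, the master factor of the muscle lineage, was at 1.93, 2.01 and 2.20 CPM in MBD2t and at 0.173, 0.177 and 0.102 CPM in MBD2a (log2 fold change 3.75, edgeR adjusted p = 0.00023579). Myog, its downstream partner, was at 0.283 to 0.477 CPM in MBD2t and 0.0255 to 0.0576 CPM in MBD2a (3.14, adjusted p = 0.031755), and its call was lost without s15 (adjusted p = 0.0691). The muscle cadherin gene Cdh15 was at 17.4, 19.4 and 22 CPM in MBD2t and at 1.90, 3.98 and 4.18 CPM in MBD2a (2.55, adjusted p = 0.030007), and the membrane repair gene Dysf at 74.6 to 90.3 CPM and 22.2 to 52.3 CPM (1.27, adjusted p = 0.018469). Pax3 and Pax7, which also mark the neural tube, made up most of the WT sum, with Pax3 at 140 to 216 CPM and Pax7 at 27.4 to 41.2 CPM in WT. Without these 2 the other 25 genes summed to 216 to 236 CPM in MBD2t, 68.7 to 152 CPM in MBD2a, 225 to 336 CPM in Mbd3KO and 39.8 to 56.2 CPM in WT, and with them to 219 to 238, 71.9 to 156, 228 to 338 and 223 to 295 CPM.

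Of 7 MHC class II genes, also grouped after values had been seen, 3 were called higher in MBD2t (4 without s15): the transactivator Ciita (2.62, adjusted p = 0.012475), the invariant chain Cd74 (1.71, adjusted p = 0.019956) and H2-Aa (2.27, adjusted p = 0.024105), none of them with MBD2t summed. Of all genes tested, 2.09% were called higher, and 3.49% without s15. Ciita was at 2.68 to 4.06 CPM in MBD2t and 0.489 to 0.619 CPM in MBD2a. The 13 mitochondrially encoded genes had a median log2 fold change of 0.53 with no call. The other chromosomes, Y apart, had medians between -0.07 and 0.02.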
